A study of Mus musculus with 12 samples.

Results

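The cells described here are splenic γδ T cells that carried transcripts of both Ccr9 and Scart2. A cell was a member if it had at least 500 unique molecular identifiers (UMIs, 1 per captured transcript), at least 1 UMI of Ccr9 and at least 1 of Scart2. Its counts of Ccr6, Ccr7, Il2rb, Trgv6 and Trdv4 all had to be 0. In the WT libraries 543 of 18998 splenic cells met this rule, with 228 of 7833 cells in WT library 1 and 315 of 11165 cells in WT library 2. In the libraries of GFI1 KO mice 9 of 7818 cells met it in KO library 1 and 1 of 11679 in KO library 2, which makes 553 members among 38495 splenic cells and 97404 cells in the whole series. The members were thus selected on the measured counts of these 7 genes.

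The study profiled sorted γδ T cells of the spleen, sorted γδ T cells of the thymus and CD4-negative, CD8-negative thymic precursors by droplet 3′ single-cell RNA sequencing. The mice were adult, on the C57BL6/J background, and either wild type (WT) or germline knockouts of Gfi1 (KO), a zinc-finger transcriptional repressor. No mouse received a treatment. Because the knockout is germline, every cell type of the KO animals lacks the factor, not the γδ T cells alone. Splenic cells were depleted of B cells, NK cells and myeloid cells with magnets and then sorted as CD3+ CD4neg γδ T cells. WT and KO cells were hashtagged and run together in 2 pools, so each genotype has 2 splenic libraries. How many animals went into a library is not given in the sources used here, and a p value below measures the spread between the 2 libraries of a group. Members and splenic WT comparison cells come from the same 2 libraries. The main gene test leaves this pairing out, and the fit with the library as a block takes it in.

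γδ T cells develop in the thymus and are best known for acquiring an effector program before they leave it, either for IL-17 (γδT17 cells, driven by c-MAF and SOX factors among others) or for IFN-γ and cytotoxicity (driven by T-bet and EOMES). CCR9 is the receptor for CCL25, a chemokine made in the thymus and the small intestine. SCART2 is a scavenger receptor of the cysteine-rich family found on γδ T cells, and ARPP21, SOX5 and GRIA3, whose genes served as further markers of this population, are an RNA-binding protein, a SoxD transcription factor and a glutamate receptor subunit.

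Gfi1 itself was read in whole libraries at 11.8 and 18.0 CPM (UMIs of a gene scaled to a common total, as parts in 1000000) in WT and at 18.1 in both KO libraries. The 3′ count thus did not separate the genotypes and was no check of the labels. The hashtag of the labelled genotype was the higher one in all members. The median share of that tag was 97.4% and 97.3% in the WT members and 89.8% in the 9 KO members. Between the splenic libraries of different pools 15 to 26 cell barcodes were shared, none of them the barcode of a member.

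The members were cells of ordinary depth. Their median UMI count was 4829 in WT library 1 and 4762 in WT library 2, against 4947 and 5033 in the remaining cells, and only 5 and 4 members exceeded the median by a factor of 2. Summed over cells, the members gave 1117865 and 1531336 UMIs. Ccr9 was seen with a median of 3 UMIs per member in both libraries, and Scart2 with a median of 2 and 1. In 25 and 55 members both genes rested on 1 UMI each. In KO cells with a Trgv6 UMI, taken as the background because the rule leaves them out, Ccr9 was found in 1.34% and 2.44% of cells and Scart2 in 0.526% and 1.78%, at median depths of 5760 and 5663 UMIs.

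The 5 excluded genes removed most of the cells that held both Ccr9 and Scart2. Of 550 such cells in WT library 1 and 957 in WT library 2, 41.5% and 32.9% were kept. Il2rb, the IL-2 and IL-15 receptor chain of type 1 lymphocytes, was present in 182 and 369 of them, and Ccr7, the homing receptor of naive cells, in 124 and 331. Ccr6, a γδT17 receptor, was present in 87 and 80. The members are therefore a minority of all Ccr9 and Scart2 double-positive cells, chosen to lack the marks of the 3 other states.

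The label was checked against the genes given as markers. Arpp21 was read in the members at 194 and 195 CPM (WT library 1 and 2), against 19.0 and 25.2 CPM in all other WT splenic cells. Sox5 stood at 305 CPM over both libraries against 194 and 173 CPM, and Gria3 at 155 and 224 CPM against 60.4 and 67.6. All 3 were thus higher in both libraries, Arpp21 by the widest margin. These genes came with the definition of the population, so the values are a description without a test. The same holds for Ccr9 (763 and 758 CPM in members, 155 and 144 elsewhere) and Scart2 (521 and 451 CPM, against 43.9 and 53.6), which chose the members.

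Single members were unequal in these markers. An Arpp21 UMI was found in 33.8% and 35.9% of members, against 5.8% and 6.99% of the other WT cells, 3.23% and 4.92% of WT cells with a Trgv6 UMI (median depths 6200 and 6144 UMIs) and 0.182% and 0.239% of KO cells with one. Sox5 was found in 43.0% and 44.8% of members and Gria3 in 37.7% and 45.4%. All 3 markers occurred together in 24 and 45 members, whereas 35.5% and 27.9% of members had none of them. Cells just inside the rule, with exactly 1 UMI of both genes, held Arpp21 at 39.5 and 74.7 CPM. Cells just outside it, with the same 5 genes at 0, held it at 56.7 and 68.5 CPM when only Ccr9 was seen (765 and 915 cells) and at 42.6 and 23.9 CPM when only Scart2 was seen (100 and 185 cells). With at least 2 UMIs of each rule gene (86 and 120 cells) Arpp21 was at 279 and 311 CPM.

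To find what else set the members apart, their UMI counts were summed per library and compared with the sums of all other cells of the same 2 WT libraries. Among called genes at a mean of 20 CPM or more that went one way in both libraries, Gfra1, Ly6c1 and Dntt had the widest differences on the higher side, and Klre1, Klrc1 and Klrc2 on the lower side. Of 12430 genes tested with edgeR, 774 were called at an adjusted p under 0.05, which is 6.23% (297 or 2.39% higher in the members and 477 or 3.84% lower). With the library as a block 1779 genes were called, and 491 without WT library 2. Here and in later gene tests, without a WT library means that its sum of members was left out, with both comparison sums kept. Counts for gene lists against all other cells stand beside the 6.23% of all genes called, and those in other comparisons beside the share given there. Counts against all other cells with the block stand beside 1779 of 12430. The median difference of all genes was -0.02 on the log2 scale. The 7 rule genes were left out of the test. Cells selected on these genes can also differ in genes that go together with them, and the part of the selection in the differences below was not tested.

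Gfra1, which encodes the receptor for GDNF, was read at 44.7 and 52.9 CPM in the members and at 3.78 and 4.26 CPM in the other cells, the widest difference among higher genes at that level (log2 difference 3.49 ± 0.19 SE, edgeR adjusted p = 8.3e-06). It was found in 8.33% and 10.2% of members and in 0.960% and 1.25% of the rest. Ly6c1, a surface protein of the Ly6 family, stood at 86.8 and 79.0 CPM against 6.73 and 9.78 (3.20 ± 0.20, adjusted p = 1.9e-05). Dntt, the terminal transferase that adds nucleotides to antigen receptor junctions, stood at 45.6 and 56.2 CPM against 5.05 and 7.05 (2.96 ± 0.22, adjusted p = 5.2e-05). The naming rule asked for the same direction in both libraries, so that these genes were higher in both adds no support. The transcripts themselves were caught in a minority of members.

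The other genes of the higher side by the same rule were Ly6d, known from early lymphoid progenitors (log2 difference 2.77), the ErbB ligand Nrg2 (2.66), the monocarboxylate transporter family gene Slc16a5 (1.80) and the GD3 ganglioside synthase St8sia1 (1.80). They went on with the interferon-induced GTPase Tgtp1 (1.60), the aromatic amino acid transporter Slc16a10 (1.48), the integrin αE chain Itgae (1.37), Mpped2 (1.28) and the CD8β chain Cd8b1 (1.25). Not all of these set the members apart from the smaller classes compared below. The 322 and 642 WT cells with both Ccr9 and Scart2 and a UMI of an excluded gene were not tested as a class. Whether Gfra1, Ly6c1, Dntt or these genes set the members apart from such cells was thus not tested. Against Scart2 and Ccr6 cells Itgae was lower in the members (-0.80, edgeR adjusted p = 2.8e-05), and Slc16a10 (0.48) and Mpped2 (0.83) did not pass the test. With the library as a block Mpped2 passed (edgeR adjusted p = 0.017) and Slc16a10 did not. Against cells with Scart2 only, Itgae (0.28), Slc16a10 (0.73), Mpped2 (0.31) and Tgtp1 (0.74) did not pass the test. Nor did Itgae (0.45), Cd8b1 (0.32), Slc16a5 (0.70) and St8sia1 (0.61) against cells with Ccr9 only. With the library as a block those in the Ccr9-only comparison passed (edgeR adjusted p = 0.0018, 0.0027, 0.021 and 3.5e-07). Mpped2 was also not called against all other cells with at least 2 UMIs of each rule gene (0.82, adjusted p = 0.13). St8sia1 was well expressed, at 160.1 and 133 CPM against 42.7 and 34.7. Cd8b1 was read at 227 and 295 CPM against 109 and 95. Ly6c1 and Ly6c2 are close copies of each other, as are Tgtp1 and its neighbour Tgtp2, and how reads were divided within these pairs is not given in the sources used here.

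On the lower side, 4 genes of NK-type lectin receptors were at low levels in the members. Klrc1 (NKG2A) was at 0.895 and 5.22 CPM against 79.6 and 98.3 CPM (log2 difference -4.83 ± 0.33, adjusted p = 3.4e-05), and Klrc2 (NKG2C) at 4.47 and 1.31 CPM against 53.4 and 75.0 (-4.71 ± 0.41, adjusted p = 2.2e-04). Klrc2 was not called without WT library 1 (adjusted p = 0.063) or without WT library 2 (adjusted p = 0.10). Klre1 gave 2 UMIs in all members, a level 67.5-fold lower than in the other cells (95% counting interval 18.7 to 557). Klri1 differed by -3.98, and this call too was lost without WT library 2 (adjusted p = 0.056). Klrc1 and Klrc2 are similar in sequence, so their split is uncertain. Against cells with Ccr9 only, Klrc1 (-1.60), Klrc2 (-1.29) and Klri1 (-0.67) did not pass the test. Klrc1 passed there with the library as a block (edgeR adjusted p = 0.016). Against Scart2 and Ccr6 cells Klrc1 (-2.46) and Klri1 (-1.85) were lower in the members.

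Ccl5, a chemokine of effector lymphocytes, was the most abundant of the lower genes, at 219 and 153 CPM in the members against 2183 and 2361 CPM (log2 difference -3.73 ± 0.15, adjusted p = 8.3e-06). The call was lost in cells of 4000 to 8000 UMIs (-4.08, adjusted p = 0.066) and with at least 2 UMIs of each rule gene (-3.84, adjusted p = 0.17). Ly6c2 was at 19.7 and 18.3 CPM against 320.3 and 299.9 (-4.15). Ifngas1, a long noncoding RNA that neighbours Ifng, was at 4.47 and 6.53 CPM against 106 and 124 (-4.46). Samd3 (-4.53), the receptor phosphatase gene Ptprm (-4.30), Lrmda (-3.89), the peptidoglycan receptor gene Pglyrp1 (-3.60) and Mctp1 (-3.53) completed this side.

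**Figure D1:**
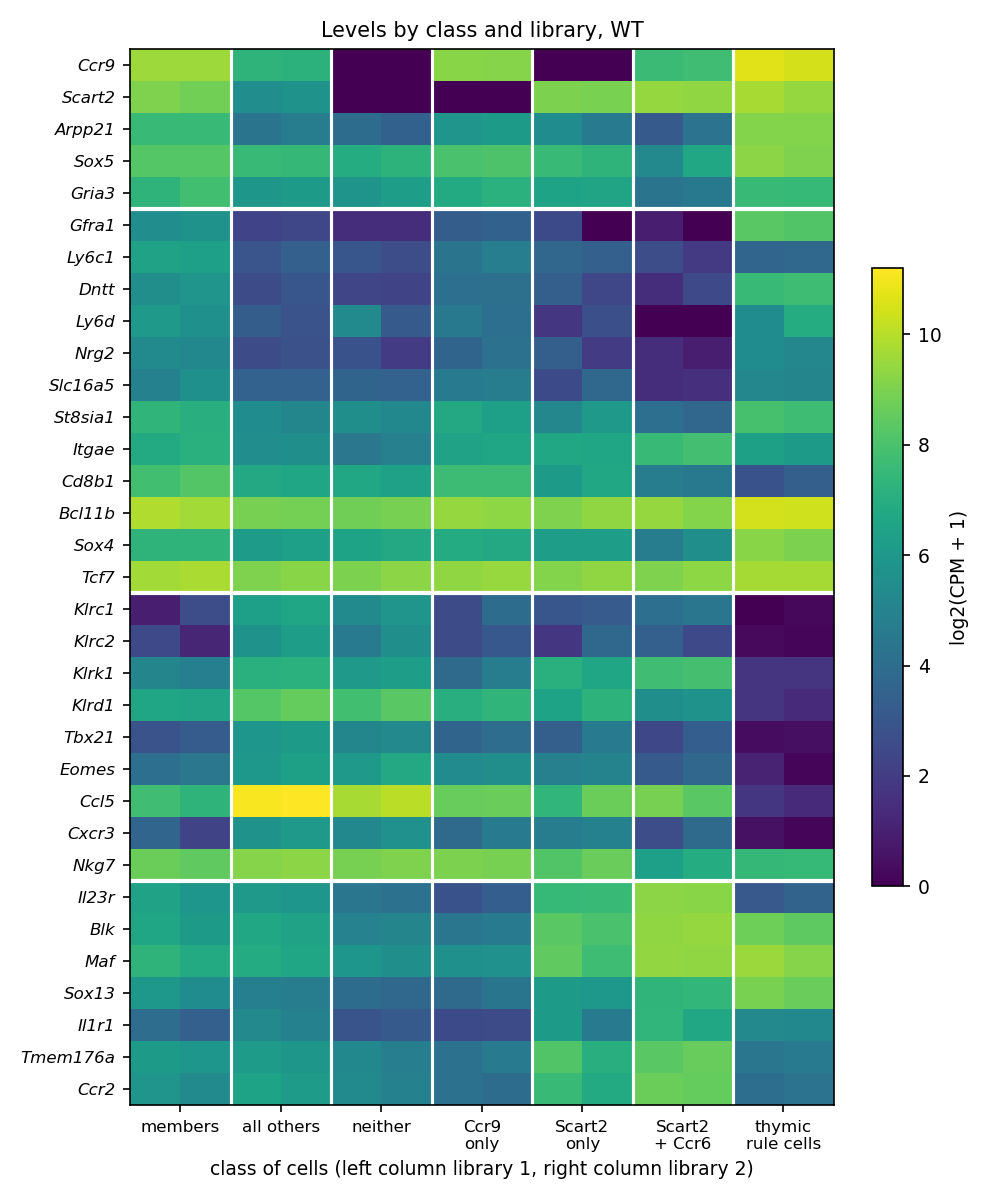
Level of each gene, as log2(CPM + 1), in the summed cells of 7 classes, with 1 column for each of the 2 WT libraries of a class. From the left, the classes are the members, all other WT splenic cells, cells with the 5 excluded genes at 0 and neither Ccr9 nor Scart2, with Ccr9 only or with Scart2 only, cells with Scart2 and Ccr6, and thymic γδ T cells that meet the rule. Gfra1 reads 44.7 and 52.9 CPM in the members and 3.78 and 4.26 CPM in all other splenic cells, and Il23r peaks in the Scart2 and Ccr6 class at 613 and 599 CPM.

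The gene lists summarise these differences by program. Of 19 tested genes of the type 1 and cytotoxic program 15 were lower in the members and none higher, with a median difference of -2.06, or -1.94 with Ifng at the bound its count of 0 allows. Tbx21, which encodes T-bet, was at 6.26 and 8.49 CPM against 57.4 and 67.3 (-3.16), and Eomes at 16.1 and 20.9 CPM against 62.7 and 82.1 (-2.06). Xcl1 (-2.26), Cxcr3 (-3.13), Klrk1 (-2.32), Klrd1 (-1.94) and Nkg7 (-0.74) were lower as well, and Ifng gave no UMI in the members. The granzyme gene Gzma was not among them, at 27.7 and 30 CPM against 29.3 and 17.9. Il2rb, whose count of 0 was part of the rule, is itself known as a gene of type 1 lymphocytes. Against Scart2 and Ccr6 cells 4 of 13 tested genes of the list were higher, Nkg7 (1.88) and Xcl1 (1.60) among them, and 4 lower. Of all genes tested in that comparison 8.35% were higher and 10.7% lower. Against cells with Ccr9 only, Eomes (-1.25), Ccl5 (-1.13) and Nkg7 (-0.42) were among the lower genes, while Tbx21 (-0.86) and Klrk1 (0.54) did not pass the test.

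Of 17 tested γδT17 genes 1 was higher and 4 lower, with a median of -0.23. Sox13 was higher, at 61.7 and 42.4 CPM against 27.9 and 24.7 (0.85 ± 0.18, adjusted p = 0.021). Il1r1 (-1.57), Zbtb16, which encodes PLZF (-1.52), Cxcr6 (-0.85) and Ccr2 (-0.85) were lower. With the library as a block 7 of the genes were lower. Without the members that held Il23r, 10 of the 16 genes other than Il23r were lower and none higher. That setting was chosen after the data were seen and removed such cells from the members alone. The comparison kept its Il23r cells, so the setting favours lower γδT17 levels in the members by construction. Il23r was read at 87.7 and 58.8 CPM in members and 63.4 and 57.6 in the rest, and Maf at 157 and 114 CPM against 119 and 98.3. Neither passed the test against this mixed comparison, which holds the splenic γδT17 cells themselves.

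The immature thymic genes moved in part. Of 13 tested genes of the immature thymic list 3 were higher and none lower. These were Dntt, Sox4 (156 and 153 CPM against 71.9 and 80.3, 0.91) and Bcl11b, a factor of T lineage commitment (923 and 800.0 CPM against 474 and 458, 0.77). With the block 6 were higher and 1 lower. Against cells with Ccr9 only, Dntt was higher (1.60). Sox4 (0.41) and Bcl11b (0.35) passed there only with the block (edgeR adjusted p = 0.0013 and 5.0e-07). Cd24a, the standard surface mark of immature γδ thymocytes, was at 3.58 and 6.53 CPM against 7.17 and 5.47, and Rag1 gave no UMI in any of these cells. Among 12 tested cell cycle genes 5 were lower and none higher, or 8 lower with the block. Mki67, a gene of dividing cells, gave 1 UMI in all members together (0 and 0.653 CPM, against 27.9 and 18.5), which is 59.4-fold lower (95% counting interval 10.6 to 2347).

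Genes of naive-like, circulating lymphocytes moved in both directions. Tcf7, which encodes TCF-1 (809.6 and 882 CPM against 524 and 586, 0.50), Foxp1 (0.37) and Foxo1 (0.45) were higher. Il7r (-0.31), Bcl2 (-0.62) and Dapl1 (-1.01) were lower, which makes 3 genes in each direction of 14 tested, or 5 higher and 3 lower with the block. Lef1, a partner of TCF-1, was at 792 and 822 CPM against 714 and 717, a difference of 0.06 that did not pass the test. The activation and memory gene Cd44 stood at 17 and 17.6 CPM against 98.9 and 84.8 (-2.52 ± 0.17, adjusted p = 3.4e-05). Against cells with Ccr9 only, Dapl1 was lower (-1.08), and Foxp1 (0.06), Foxo1 (0.10), Bcl2 (-0.03) and Cd44 (0.04) did not pass the test. Tcf7 (0.28) and Il7r (0.33) passed it only with the block (edgeR adjusted p = 1.7e-04 and 2.4e-06).

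Adhesion and cytokine receptors added further differences. Of 15 tested integrin genes Itgae and Itgb3 (80.5 and 75.8 CPM against 37.8 and 38.3, 0.92) were higher, while 5 were lower, among them Itgb1 (-1.34), Itga4 (-0.52) and the α2 chain gene Itga2 (-3.0). Itgb3, like Itgae, was lower in the members than in Scart2 and Ccr6 cells (-1.15, adjusted p = 1.2e-07). Of 13 chemokine receptor genes outside the rule 5 were lower and only Ccr4 higher (17 and 7.84 CPM against 3.05 and 2.59, 1.97), and with the block 8 were lower. Of 16 cytokine receptor genes Il6ra (52.8 and 82.9 CPM against 30.6 and 33.6, 1.00) and Ifngr2 (1.19) were higher, and Il7r, Il4ra (-0.79) and Il10ra (-1.15) lower. With the block the counts were 5 higher and 5 lower. Of the E proteins and their Id antagonists, Tcf12 (0.38), Tcf4 (0.75) and Id3 (0.49) were higher, and Id2, a factor of effector lymphocytes, lower (141 and 86.9 CPM against 256 and 203, -1.14), of 5 genes tested, so the 2 Id genes went opposite ways. In the interferon response list 2 of 11 genes, Ifit1 (1.06) among them, were higher and none lower, with 4 higher under the block. Against cells with Ccr9 only, Itgb3 was higher (1.13). Il6ra (0.35), Ifngr2 (0.27), Tcf4 (0.23), Id3 (0.00), Id2 (0.05) and Ifit1 (0.41) did not pass the test there. Ccr4 (1.23) passed there only with the block (edgeR adjusted p = 0.046).

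Related factors and receptors were read as well. Of 8 Runx and Ikaros factor genes Ikzf2, which encodes Helios, was higher (1359 and 1324 CPM against 819 and 919, 0.51 ± 0.08, adjusted p = 0.0035) and Ikzf3, which encodes Aiolos, lower (328 and 326 CPM against 508 and 524, -0.77 ± 0.08, adjusted p = 3.5e-04). With the block 2 were higher and 3 lower. Against cells with Ccr9 only, Ikzf3 was lower (-0.52), while Ikzf2 (0.27) passed only with the block (edgeR adjusted p = 3.1e-05). Scart1, the nearest relative of Scart2, was uneven between the libraries, at 107 and 219 CPM against 238 and 278, and did not pass the test unless the library was a block (adjusted p = 7.1e-22). How reads were divided between these related genes is not given in the sources used here. Of 13 tested genes that follow TCR signals, 1 was higher, Id3, and none lower, a share near the 6.23% called over all genes. With the block 2 were higher, where 1779 of all 12430 genes were called. Gfi1 was at 22.4 and 26.8 CPM in the members against 11.5 and 17.7 (0.65 ± 0.29, edgeR adjusted p = 0.25, or 0.040 with the block). Of 5 tested genes of Gfi1 and its repressor partners the deacetylase gene Hdac2 was higher (0.49) and none lower, or 3 and none with the block. Against cells with Ccr9 only, Hdac2 (0.46) passed only with the block (edgeR adjusted p = 0.026).

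Genes of other cell types were measured beside these results. Trdc, the constant gene of the TCRδ chain, was at 1799.9 and 1768 CPM in the members against 1347 and 1478 (adjusted p = 0.10, or 9.0e-07 with the library as a block). Cd4 gave no UMI in the members. Of 5 tested αβ T cell genes 3 were higher, namely Cd8b1, Cd8a (42.9 and 58.8 CPM against 32.4 and 28.7, 0.65) and Trbc1, a TCRβ constant gene (976 and 902 CPM against 545 and 583, 0.62). With the block 4 were higher and 1 lower. Cd8a did not pass the test against cells with Ccr9 only (0.09), with Scart2 only (0.93) or with Scart2 and Ccr6 (1.84). Against the last class it passed with the block (edgeR adjusted p = 2.4e-09). Trbc1 was higher against each of these classes (0.42, 0.55 and 0.98). The summed level of the αβ list was 2661 and 2532 CPM in members and 1719.8 and 1787 CPM in the rest, while Trac, the TCRα constant gene, was at 79.6 and 58.1 CPM against 107 and 70.1. The part of αβ T cells in the higher Cd8 and Trbc1 levels was not tested. Igkc, a B cell immunoglobulin gene, was at 12.5 and 2.61 CPM in the members, 1589 and 1.52 CPM in the other cells and 14086 and 5.70 CPM in cells with neither rule gene, so a B cell signal sat in the comparison cells of WT library 1 and not in the members. The 5 NK cell genes of the list summed to 4.47 and 1.96 CPM in members against 49.3 and 53.2, and of the 3 that could be tested 2 were lower.

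**Figure D2:**
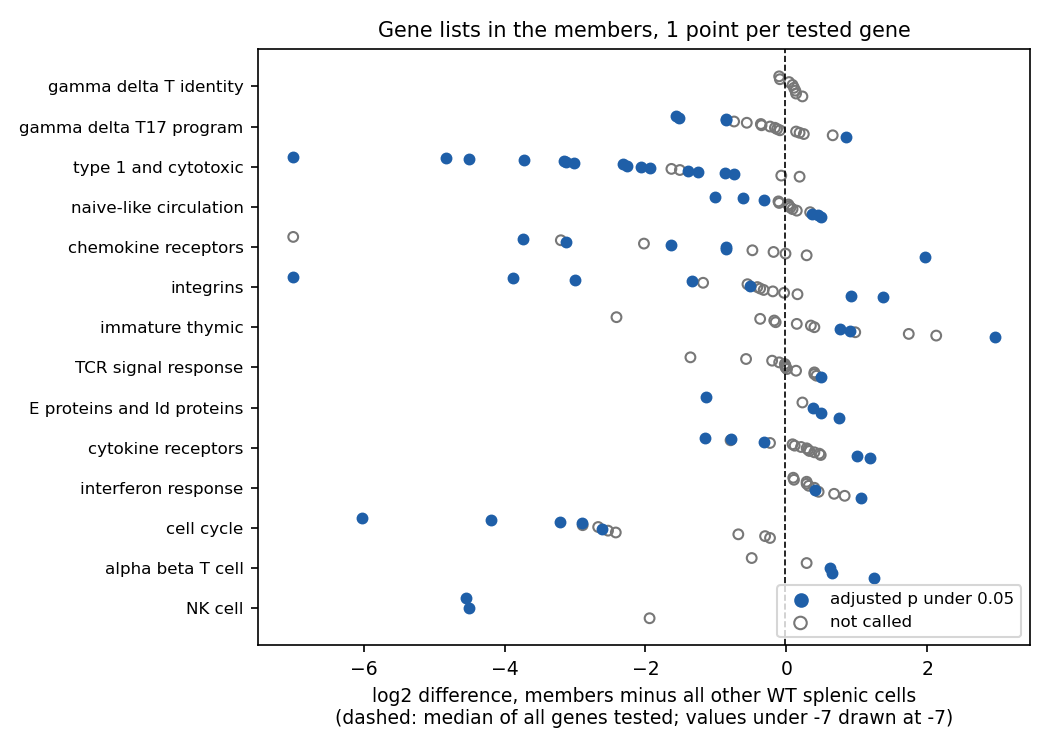
Log2 difference between the members and all other WT splenic cells (horizontal axis) for every tested gene of 14 lists, with 1 point per gene. Blue points passed the edgeR test at an adjusted p under 0.05, open points did not, the dashed line is the median of all genes at -0.02, and values under -7 are drawn at -7. The type 1 and cytotoxic genes lie to the left, with 15 of 19 called, while the points of the immature thymic list that passed, led by Dntt at 2.96, lie to the right.

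Because the rule also removed Il2rb and Ccr7, the members were next set beside cells with the same 5 genes at 0 but with neither Ccr9 nor Scart2 (1125 and 1625 cells). These cells were shallower, with median UMI counts of 3552 and 3412. Of 10049 genes tested 467 were called, which is 4.65% (216 or 2.15% higher and 251 or 2.50% lower). The count was 979 with the library as a block, 266 with DESeq2, 135 without WT library 1 and 161 without WT library 2. Among called genes at a mean of 20 CPM or more, Gfra1 (1.74 and 1.78 CPM in the comparison, log2 difference 4.68), Ly6c1 (3.66), Dntt (3.57), Nrg2 (2.97) and the zinc-finger gene Zfp462 (2.44) led the higher side. Ptprm (-5.92), Ifngas1 (-4.34), Mctp1 (-4.29), Klri1 (-4.06) and Samd3 (-4.06) led the lower side, and Ifngas1 was not called without WT library 1 (adjusted p = 0.18) or without WT library 2 (adjusted p = 0.17). Ly6d was at 40.2 and 8.01 CPM in these cells and did not pass the test.

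Of 16 γδT17 genes tested 7 were higher and none lower, with a median of 0.68 against -0.01 for all genes. Il23r was at 87.7 and 58.8 CPM against 19.8 and 17.1 (1.88 ± 0.22, adjusted p = 1.5e-04), Sox13 differed by 1.83, and Blk (1.27), Maf (1.27), Rora (1.22) and Tmem176a (0.92) were higher too. Most of these calls were lost without the 33 members of each library that held an Il23r UMI, a setting chosen after the data were seen that removed such cells from the members alone. There 2 of the 15 genes other than Il23r were higher (Sox13 and Rora) and 2 lower, with a median of -0.35, against 6 higher and none lower with all members. Zfp462 was then not called either (0.39, adjusted p = 0.76). Of 17 type 1 and cytotoxic genes 12 were lower and 1 higher, Gzma (8.26 and 14.2 CPM in the comparison, 1.26), while with DESeq2 none was higher. No cell of either class held an Il2rb UMI. Itgae was at 20.9 and 28.7 CPM in the comparison (2.26).

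The 2 rule genes were also taken apart. Compared with cells that had Ccr9 only, 155 of 9624 genes were called, which is 1.61% (93 or 0.966% higher and 62 or 0.644% lower), and 453 with the library as a block. Of 16 γδT17 genes 9 were higher and none lower, with a median of 1.34 against -0.01 for all genes. At a mean of 20 CPM or more, Il23r (6.00 and 9.15 CPM in Ccr9-only cells, 3.18 ± 0.24, adjusted p = 2.0e-08), Zfp462 (3.19), Pde5a (2.78), Nav2 (2.33) and Gfra1 (2.31) were highest by difference. Without the Il23r members, 2 of the 15 other γδT17 genes were higher (Sox13 and Rora), in place of 8, with a median of 0.24. Zfp462 (adjusted p = 0.37), Pde5a (adjusted p = 0.90) and Nav2 (adjusted p = 0.39) then were not called, and Il23r was 0 by construction. Ptprm (-4.20), Ly6c2 (-1.83), Slamf7 (-1.73), Ms4a4c (-1.60) and Hdac9 (-1.43) were lowest at that level.

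Compared with cells that had Scart2 only, 204 of 8135 genes were called, which is 2.51% (65 or 0.799% higher and 139 or 1.71% lower). In this comparison γδT17 genes were lower, 9 of 15 with none higher and a median of -1.46 against -0.00 for all genes. Il23r was at 182 and 191 CPM in Scart2-only cells (-1.46) and Blk at 322 and 255 CPM (-1.89). Gfra1 gave 2 UMIs in the Scart2-only cells and was 28.0-fold higher in the members (95% counting interval 7.60 to 234). Without the Il23r members 370 genes were called. At a mean of 20 CPM or more, Ly6d (3.55), Dntt (2.95), Ly6c1 (2.87) and Nrg2 (2.71) followed, and Ccr10 (-4.15), Pard3 (-3.60), Ifngas1 (-3.0), Abi3bp (-2.90) and Ly6c2 (-2.89) led the lower side. In sum the members lay between cells with only one of the 2 genes in Il23r and Blk, though all Il23r UMIs came from 33 members of each library, whereas Gfra1, Ly6c1 and Dntt were higher in the members than in either. The 2 comparisons share the members' sums.

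Another splenic class shares Scart2 with the members but carries Ccr6, which the rule excludes (223 and 213 cells, median UMI counts 4309 and 4353). It has no condition on Ccr9 or the other excluded genes, and 87 and 80 of its cells held Ccr9. Against it 1647 of 8633 genes were called, which is 19.1% (721 or 8.35% higher and 926 or 10.7% lower), and 803 with DESeq2. The widest group difference was in γδT17 genes, where 13 of 15 tested genes were lower in the members, none higher, with a median of -2.58. Il23r was at 613 and 599 CPM in the Ccr6 cells (-3.15 ± 0.15, adjusted p = 2.4e-18), Blk at 656 and 685 CPM (-3.13) and Maf at 663 and 658 CPM (-2.37). Cd44 was also lower in the members (226 and 187 CPM in the Ccr6 cells, -3.64), and so was Il7r (3255 and 3461 CPM, -2.07).

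Naive-like genes ran the other way in this comparison, with 10 of 14 higher and 2 lower. Among the higher ones Lef1 differed by 1.45. Of 8 tested interferon response genes 7 were higher in the members and none lower (median 1.92), and of 8 immature thymic genes 7 were higher and 1 lower, or 4 higher with DESeq2. Ly6d gave no UMI in the Ccr6 cells and was at least 40.5-fold higher in the members, against the 3 counts that a 0 allows over both libraries. Gfra1 gave 1 UMI in them and was 109-fold higher (95% counting interval 19.2 to 4338). Nrg2 (4.61), Slc16a5 (4.31), Ly6c1 (4.23) and Dntt (3.90) were higher by the fitted difference. Fstl4 gave no UMI in the members and was at least 54.1-fold lower. The 1 UMI of Mki67 made it 117-fold lower (20.4 to 4651). These were followed by the skin-homing receptor gene Ccr10 (-5.87), Pard3 (-4.94) and Camk2n1 (-4.47).

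The variable genes of the T cell receptor were read only where a 3′ fragment happened to reach them, in 57.9% and 64.4% of members for the γ chain and in 28.1% and 19.0% for the δ chain. Trgv2 made up 78.0% and 77.3% of the γ calls of members, Trgv1 15.2% and 17.2% and Trgv4 6.06% and 5.42%. In cells with neither rule gene the Trgv2 share was 69.4% and 73.9%. Among δ calls Trdv5 took 53.1% and 45.0% in members (46.2% and 39.4% in cells with neither gene) and Trdv2-2 took 32.8% and 46.7% (34.8% and 31.9%). Trgv6 and Trdv4 were excluded by the rule. These shares were not tested, and the δ shares rest on 64 and 60 calls. Close copies among the V genes add to their uncertainty.

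Within the members, cells with and without an Il23r UMI differed in most of the markers above. An Il23r UMI was found in 33 members of each library. Only 1 of the 66 also held Arpp21, whereas Arpp21 was found in 39.5% and 39.7% of the members without Il23r. Sox5 was found in 3.03% and 9.09% of the Il23r cells against 49.7% and 48.9%, St8sia1 in 6.06% and 3.03% against 46.2% and 40.8%, and Cd8b1 in 0% and 9.09% against 38.5% and 41.5%. Gfra1 and Dntt were found in none of the 33 Il23r cells of either library, which allows up to 9.09% of cells with a UMI in each, by the 3 counts that a 0 allows. In the members without Il23r, Gfra1 was found in 9.74% and 11.3%, close to that limit, so no difference in Gfra1 can be read from these counts. Dntt was found in 15.4% and 18.1%.

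The Il23r cells instead held the γδT17 transcripts. Blk was found in 84.8% and 75.8% of them against 7.69% and 9.57% of the other members, and Maf in 93.9% and 78.8% against 21.5% and 20.9%. Zfp462 was found in 66.7% and 48.5% against 3.08% and 1.77%, and Cd44 in 42.4% and 30.3% against 1.54% and 4.96%. Il7r was found in all Il23r cells and in 62.1% and 69.1% of the others, while Lef1 was found in 63.6% and 69.7% against 87.2% and 91.8%. Both kinds of cell were of similar depth, with median UMI counts of 4468 and 4812 in the Il23r cells and 5011 and 4754 in the rest. The division was drawn after the values were seen and on cells rather than samples, so it carries no test, and some cells without an Il23r UMI may express it below detection.

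**Figure D3:**
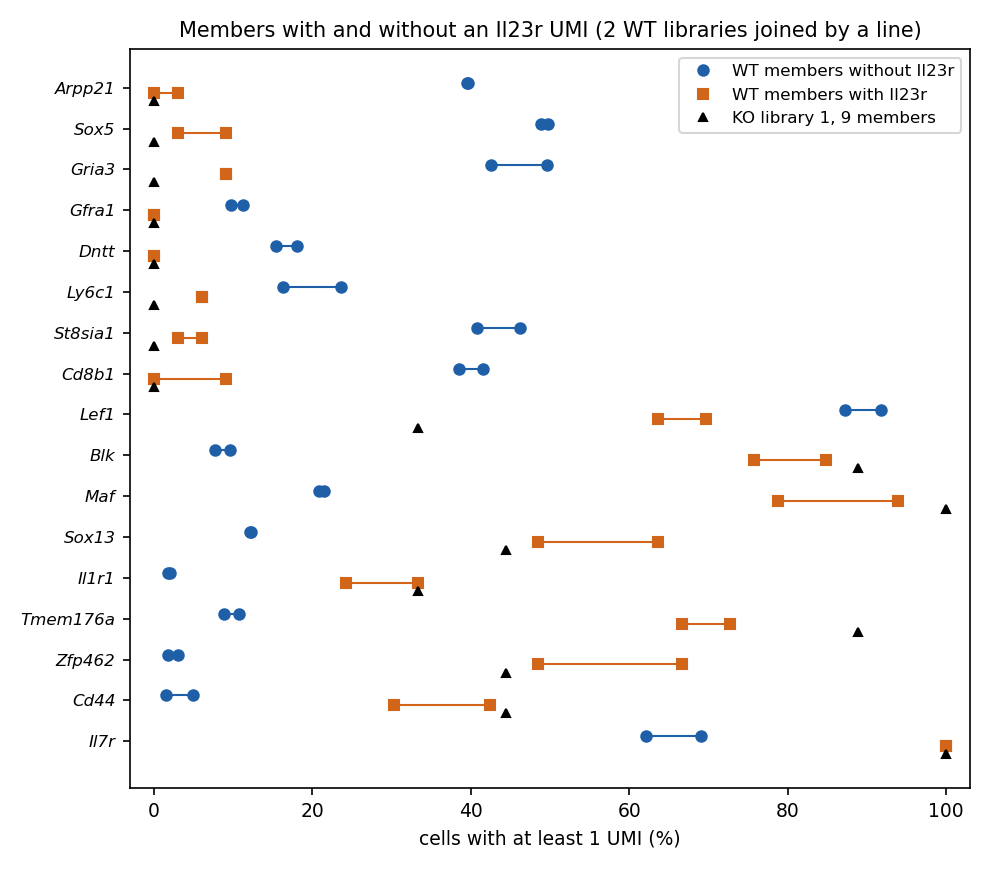
Share of cells with at least 1 UMI of each gene (horizontal axis, %) among WT members without an Il23r UMI (blue circles, 195 and 282 cells), WT members with one (orange squares, 33 and 33 cells) and the 9 members of KO library 1 (black triangles), with a line joining the 2 WT libraries. Arpp21, Sox5, Gria3, Gfra1 and Dntt sit at or below 9.09% in the Il23r cells, and Blk and Maf sit at 75.8% or above there, against at most 21.5% in the others.

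The share of cells that met the rule was set out by genotype. The rule was chosen with earlier results of these data known. The direction of the difference is therefore a description and no test of dependence on GFI1. The members' share of all splenic γδ T cells was 2.91% in WT library 1 (95% exact binomial interval 2.55 to 3.31) and 2.82% in WT library 2 (2.52 to 3.15). In KO library 1 it was 0.115% (0.0527 to 0.218) and in KO library 2 0.00856% (2.17e-04 to 0.0477). The means were 2.87% ± 0.0632 in WT and 0.0618% ± 0.0753 in KO (SD, n = 2), a difference of -2.80 percentage points. The 2 groups did not overlap, but an exact permutation test of 2 against 2 libraries cannot go below the value it gave, p = 0.333 (two-sided). The WT share was 46.3 times the KO share. It was 335 times without KO library 1 and 24.9 times without KO library 2, so the size of the ratio rests on a few KO cells.

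KO cells were read more deeply than WT cells, with medians of 5456 and 5402 UMIs over all cells against 4941 and 5025. After thinning every cell to 3000 UMIs the shares were 2.77% and 2.82% in WT against 0.147% and 0.0180% in KO. This left out 1182 and 1795 shallower WT cells and 354 and 591 KO cells. The make-up of the KO spleens differed as well: 63.2% and 64.5% of KO cells held Trgv6, one of the excluded genes, against 5.14% and 4.73% of WT cells. Among the cells with all 5 excluded genes at 0, a denominator chosen after the data were seen, members made up 10.3% and 10.4% in WT and 3.14% (1.44 to 5.87) and 0.203% (0.00515 to 1.13) in KO. Cells with Ccr9 only made up 34.5% and 30.1% of them in WT and 2.09% and 3.05% in KO. Whether KO spleens hold fewer such cells or the same cells with less Ccr9 or Scart2 transcript cannot be told apart, because these transcripts define the members.

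**Figure D4:**
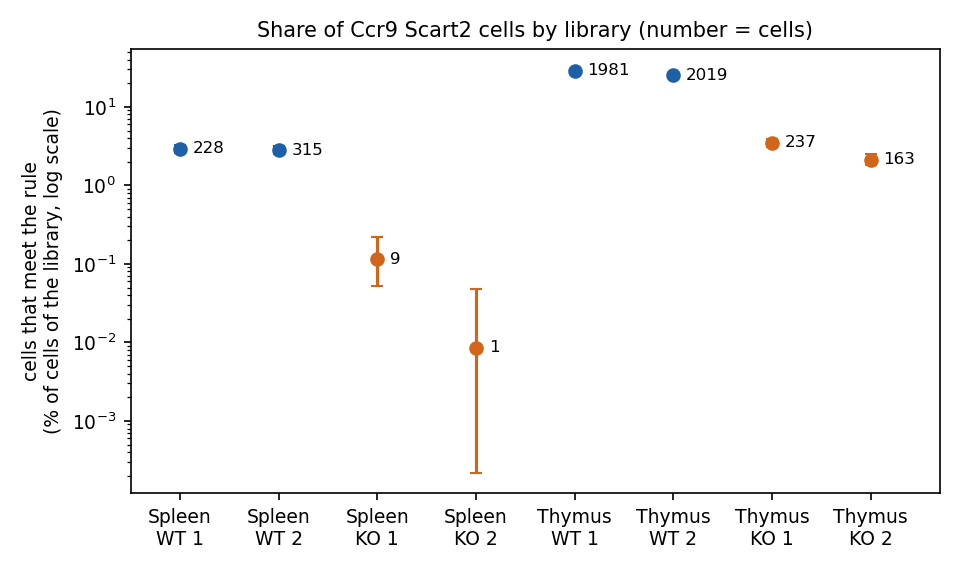
Share of cells that meet the rule in each library of sorted γδ T cells (vertical axis, % of the library's cells, log scale), with points for single libraries, bars for 95% exact binomial intervals and the number of cells beside each point. WT is blue and KO orange. Both KO libraries lie below both WT libraries, at 0.115% and 0.00856% against 2.91% and 2.82% in spleen and at 3.48% and 2.13% against 28.9% and 25.2% in thymus.

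The few KO members lacked the marker transcripts. The 9 cells of KO library 1 gave 42843 UMIs in all and no UMI of Arpp21, Sox5 or Gria3, where the pooled WT level would have given 8.34, 13.1 and 8.34 UMIs. A count of 0 allows up to 70.0 CPM here. Lef1 gave 4 UMIs where 34.7 would have been expected. Il23r was at 747 CPM (95% Poisson interval 511 to 1054) against 71.0 CPM in the pooled WT members, Maf at 957 CPM (687 to 1298) against 132 CPM, and Blk at 537 CPM (340.3 to 806) against 79.6 CPM. Il23r was found in 7 of these 9 cells and in the single cell of KO library 2. In the WT members with an Il23r UMI, Il23r was at 673 and 532 CPM. With 9 and 1 cells no test between genotypes was made, and these intervals cover counting error only.

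γδ T cells mature in the thymus, so the same rule was applied to sorted thymic γδ T cells. It held for 28.9% and 25.2% of WT thymic γδ T cells (1981 and 2019 cells) and for 3.48% and 2.13% of KO ones (237 and 163 cells). Among thymic cells with the 5 excluded genes at 0 the shares were 56.6% and 52.2% in WT against 20% and 19.2% in KO. The splenic members were compared with the thymic cells of the same rule in WT. Of 11344 genes tested 3966 were called, which is 35.0% (1806 or 15.9% higher in spleen and 2160 or 19.0% lower), and 2425 without WT library 2. Xist gave no UMI in the splenic members and 1072 and 717 CPM in the thymic cells, at least 781-fold lower in spleen, and its antisense partner Tsix also gave none. Xist is transcribed from the inactive X chromosome of females, and spleen and thymus libraries are not stated to come from the same mice. For every gene of this comparison, a difference between tissues and one between the animals, their sex included, cannot be told apart.

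All 12 tested cell cycle genes were lower in the splenic members. Among them Mki67 was at 0 and 0.653 CPM against 198 and 258, which is 608-fold lower (95% counting interval 109 to 24017), and Top2a at 8.95 and 1.96 CPM against 336 and 445 (-6.34). Ube2c, a gene of the same kind, gave 1 UMI and was 499.7-fold lower (89.6 to 19740.3), and Slc15a1, a peptide transporter gene, gave no UMI in the splenic members and was at least 59.7-fold lower. Of 14 immature thymic genes 10 were lower and 2 higher, or 1 higher with DESeq2. Sox4 (587 and 506 CPM in thymus, -1.85), Cd24a (45.9 and 58.2 CPM, -3.33), Tox2 (174 and 176 CPM, -5.18) and Dntt (190.0 and 209 CPM, -1.99) were among the lower ones. Gfra1 was at 322 and 287 CPM in thymus (-2.66) and was found in 64.9% and 60.9% of thymic cells, at median depths of 5878 and 6151 UMIs, against 8.33% and 10.2% of splenic members.

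Several genes of thymic exit and circulation were higher in spleen. S1pr1, the receptor used to leave the thymus, was read at 283 and 361 CPM in the splenic members against 33.2 and 49.5 CPM (2.93 ± 0.20, adjusted p = 6.9e-06). Klf2, its regulator, differed by 1.92 and Il7r by 2.78, and in all 9 of 14 naive-like genes were higher and 1 lower. Lef1 (792 and 822 CPM against 854 and 859) and Tcf7 did not pass the test. Integrin genes were higher in 6 of 12 and lower in none, among them Itgb7 (291 and 301 CPM against 70.1 and 75.8, 1.99) and Itgae (0.74). Cd8b1 (227 and 295 CPM against 6.15 and 9.52, 5.02) and Cd8a (5.77) were higher. Thymic cells, but not splenic ones, had been partly depleted of CD8+ cells before the sort, and the part of this step in the Cd8 difference was not tested.

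The effector programs shifted in a mixed way between the tissues. Of 14 type 1 and cytotoxic genes 11 were higher in spleen and 2 lower. Ccl5 was at 219 and 153 CPM against 2.43 and 1.60 (6.48) and Klrd1 at 97.5 and 92.7 CPM against 2.22 and 1.53 (5.63), whereas Gzma was at 27.7 and 30 CPM against 1804 and 1556 (-5.89 ± 0.15, adjusted p = 4.1e-20). Of 16 γδT17 genes 6 were higher and 8 lower. Il23r was higher in spleen (87.7 and 58.8 CPM against 7.72 and 10.8, 2.91), as were Ccr2 (1.46) and Cxcr6 (1.80). The splenic Il23r UMIs all came from 33 members of each library. Without the cells that held Il23r in either tissue, a setting chosen after the data were seen, Ccr2 was not called, and of the 15 other γδT17 genes 2 were higher (Cxcr6 and Tmem176a) and 8 lower, in place of 5 and 8. Sox13 (61.7 and 42.4 CPM against 499.7 and 397, -3.17), Maf (-2.33), Blk (-2.28) and Etv5 (5.37 and 4.57 CPM against 379.9 and 295, -6.13) were lower. Of 4 tested erythroid genes 3 were higher in the splenic members. Hbb-bs, a haemoglobin gene, gave 50 UMIs in the members and none in the thymic cells, at least 186-fold higher, and the part of such RNA in other differences was not tested. Dapl1 (5.54) and Tent5a (5.14) were the remaining genes of the higher side by the naming rule. Of the genes that came with the definition, Arpp21 was read at 194 and 195 CPM against 560.3 and 554 CPM in the thymus, Sox5 at 305 CPM over both libraries against 614 and 521, and Gria3 at 155 and 224 CPM against 194 and 179. Arpp21 and Sox5 were thus below the thymic levels and Gria3 overlapped with them, given here without a test.

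**Figure D5:**
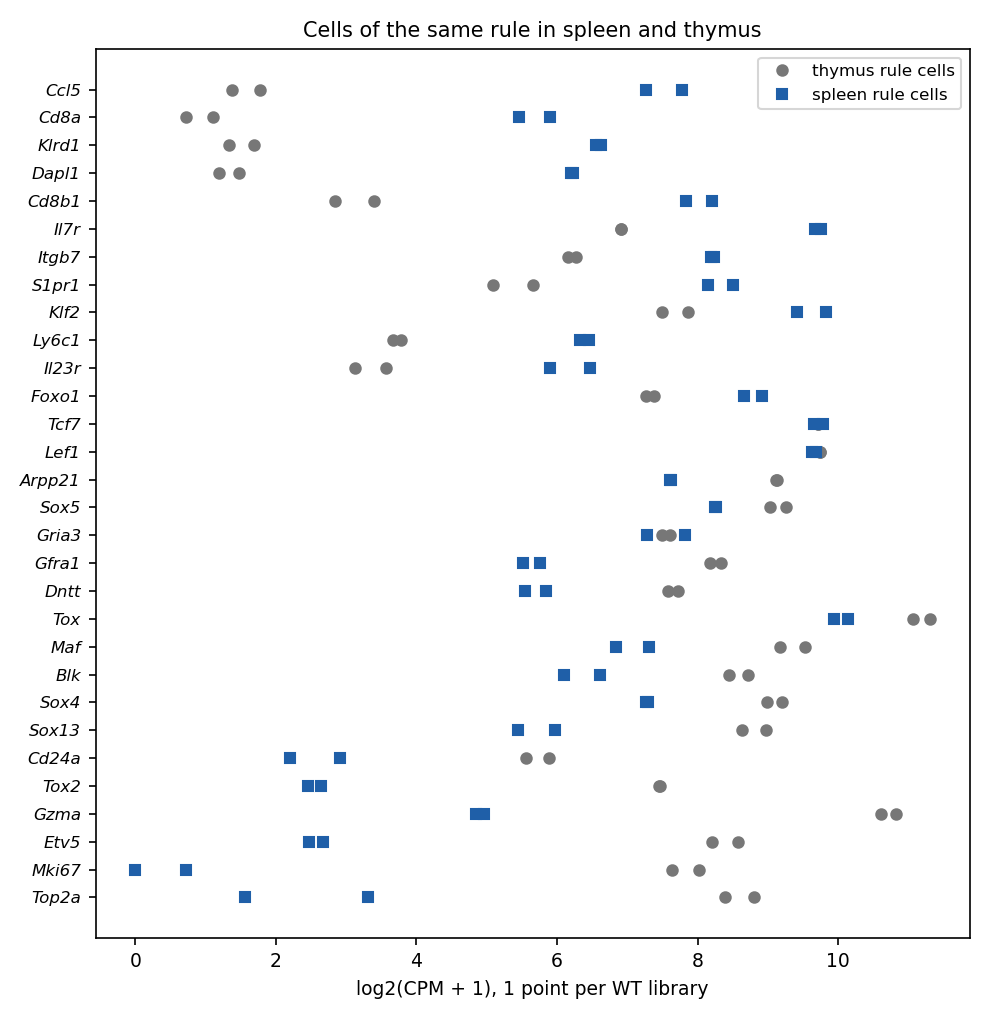
Level of selected list genes and markers, as log2(CPM + 1), in WT cells that meet the rule, with blue squares for the 2 splenic libraries and grey circles for the 2 thymic libraries. Ccl5, the Cd8 genes and S1pr1 lie to the right in spleen, Lef1 and Tcf7 lie close together, and Gzma, Etv5, Mki67 and Top2a lie far to the left in spleen, with Gzma at 27.7 and 30 CPM against 1804 and 1556 CPM.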

How the data were processed

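The deposited files give whole UMI counts for each gene in each cell, made by the authors with Cell Ranger 8.0.1 per the file headers, on GRCm39 per the submitters' processing notes, and split by hashtag into 12 libraries (hashsolo per the methods). Genotype came from the hashtag labels. No other normalization had been applied. Doublets had been addressed only through the hashtags, so doublets within a genotype remain. The 7 rule genes and 9548 ribosomal, Gm-numbered and mitochondrial genes were left out of tests.

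Counts were summed over the cells of a class in each library, since cells are not replicates. The sums were tested with edgeR 4.0.16 (quasi-likelihood F test, TMM, default filter, R 4.3.3), with Benjamini-Hochberg adjustment over all genes tested and a threshold of 0.05, all two-sided. Alternatives were the library as a block, DESeq2 1.42.0, other scaling, no filter, stricter or shallower cells, and each library left out. Levels are CPM of the summed UMIs, set here as each class's own total. The 2 libraries of a class share pool and animals with the same-numbered comparison. For the 5 splenic comparisons the deviations from group means correlated within a number (r from 0.15 to 0.31), so the numbers pair them. The main fit leaves this pairing out, and the fit with the library as a block takes it in. Genes were named by rule: of those called, at a mean of 20 CPM or more and alike in direction in both libraries, the 12 widest differences in each direction against all other cells, the 5 widest in other comparisons, and genes of prepared lists. The members, lists and naming rule were chosen with earlier results of these data known. Shares carry exact (Clopper-Pearson) 95% intervals, which cover counting error only, and a count of 0 allows up to 3 counts. The edgeR step was tested on simulated data. Some genes are not reported here.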

Additional observations from a re-analysis of the deposited data

How the results depend on the processing

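Counts of called genes moved with the settings. Against all other WT splenic cells the 774 calls became 1779 with the library as a block, 1380 without the filter on low counts and 491 to 524 with a library left out. Against cells with neither rule gene the 467 calls became 979 with the block, 266 with DESeq2, 854 without the filter and 135 to 161 with a library left out. Against Scart2 and Ccr6 cells the 1647 calls became 803 with DESeq2 and 1259 to 1469 with a library left out. Against Ccr9-only cells the block gave 453 calls in place of 155. Spleen against thymus gave 2425 to 3155 calls with a library left out, in place of 3966. For that comparison the numbers are not a shared pool (r = 0.07), and the block gave 3984 calls. In these gene tests a left-out library means that its sum of members was left out, while both sums of the comparison were kept. The single member sum that remained was assumed to vary like the others.

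Without the filter the median of all genes moved to -0.20 against all other cells and in the thymic comparison. Among the named genes' values under the alternatives 1 reversed and 12 fell short of the threshold. The reversal was Il23r against Ccr9-only cells without the members that held Il23r (-7.20), which that setting forces. Zfp462 fell short in that setting against both comparisons where it is named, and Pde5a and Nav2 against Ccr9-only cells. The other 8 arose elsewhere (Ccl5 and Klrc2 in 2 settings each, Klri1, Mpped2, and Ifngas1 in 2 against cells with neither gene). Mpped2 did so with at least 2 UMIs of each rule gene (0.82, adjusted p = 0.13). The block ended no call of a gene named by the rule. Without the members that held Il23r, a setting chosen after seeing the data, 1002 genes were called against all other cells, 548 against cells with neither gene, 146 against Ccr9-only cells, 370 in place of 204 against Scart2-only cells and 1846 against Scart2 and Ccr6 cells. Spleen against thymus gave 3766 without such cells in both tissues. The difference in share between KO and WT stayed negative in every setting, from -8.65 percentage points (cells with the 5 genes at 0 as denominator) to -1.05 (at least 2 UMIs of each gene), and from -2.86 to -2.75 with a library left out. Every setting used the Ccr9 and Scart2 counts that define the members, so this sign adds no separate support. The planned fit of KO against WT members was not run, because the KO libraries hold 9 and 1 members. Depth limits single-cell shares, since at these UMI counts most cells miss a low gene that they express.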
